A study of Mus musculus with 12 samples.

Results

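Hsd11b2 and a small set of genes around it that set or report the tissue response to glucocorticoids were examined in a mouse model of medulloblastoma. The set held 7 of the 24091 genes listed, taken by symbol. They were the 2 enzymes Hsd11b2 and Hsd11b1, the 2 receptor genes Nr3c1 and Nr3c2, and the 3 response genes Fkbp5, Sgk1 and Tsc22d3. Hsd11b2 was chosen by its TPM in tumors, where it was strongly raised, and the others for their place around it, so the tumor values and differences of all 7 genes are a description, and no p-value or call is given for them.

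RNA sequencing had been performed on 12 samples of cerebellar tissue in 4 groups of 3. The tumors were medulloblastomas of mice labelled Brca2-mut;Trp53-mut (GB344, GB359 and GB370), and the second group was the cerebellum next to the tumor in the same 3 mice, labelled as normal. The controls were cerebella of 3 Brca2-mut;Trp53-WT mice (GB361, GB508 and GB512) and 3 Brca2-WT;Trp53-mut mice (GB517, GB519 and GB520). No group was wild type for both genes. In this model floxed exons 3 and 4 of Brca2 are removed by Cre under the human GFAP promoter in the developing central nervous system, and Trp53 is knocked out in the whole animal. Tumor-bearing mice were taken at tumor formation or a humane endpoint, and the study describes the normal cerebellum as age-matched adult tissue. The labels give no age for single mice, so differences between adjacent and control cerebellum cannot be told apart from the double-mutant genotype, a tumor nearby and any difference in age or health. Values are in TPM, a transcript level corrected for transcript length and for the library total. The read depth of the libraries is unknown, and 15088 to 15803 genes reached 1 TPM in each. Defining markers matched the labels of tumors and controls, while adjacent cerebellum, labelled as normal, also carried a progenitor marker. Atoh1, the transcription factor of granule cell progenitors, was at 119 to 319 TPM in tumors and at 0 to 0.212 TPM in controls. In the adjacent cerebellum of GB344, GB359 and GB370 it was at 59.4, 50.5 and 5.0 TPM. The summed level of 5 granule neuron markers was 49.6 to 148 TPM in tumors, 1577 to 2153 TPM in adjacent cerebellum and 2070 to 2582 TPM in controls. Choroid plexus markers differed between the controls, with a summed level of 3960 to 5179 TPM in the Trp53-mut and 19.2 to 876 TPM in the Brca2-mut cerebella.

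Glucocorticoids act inside the cell only as far as local enzymes let them. The type 2 11β-hydroxysteroid dehydrogenase encoded by Hsd11b2 converts active corticosterone into inert 11-dehydrocorticosterone, and the type 1 enzyme encoded by Hsd11b1 mostly runs the reaction the other way and regenerates the active hormone. Corticosterone binds the glucocorticoid receptor (Nr3c1) and, with higher affinity, the mineralocorticoid receptor (Nr3c2), which are held by chaperones until they move to DNA. In the developing cerebellum, Hsd11b2 is known from dividing granule cell progenitors, which it shields from the hormone.

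The receptors bind an inverted repeat of AGAACA, and the upstream sequence of 2 response genes with opposite tumor differences is therefore shown. RefSeq windows on GRCm38.p6 were at hand for 5 of the 7 genes, not for Hsd11b2 or Nr3c1, and covered 12 start sites with 250 bases before each. The full repeat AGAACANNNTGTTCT, whose spacer is free and which reads the same on both strands, occurred in 1 of the 12 windows, that of Sgk1 at chr10:21993640-21993889 (plus strand), where it began 189 bases before the start site. It occurred in 3 of 32851 windows of the genome (0.00913%). Sgk1 had 6 windows, of which 1 held the repeat. Tsc22d3, which was also lower in tumors, had 3 windows, of which 0 held it. The single Fkbp5 window, at chr17:28486150-28486399 (minus strand), held neither the repeat nor either unit of it (AGAACA or TGTTCT). Neither window overlapped an exon of its own gene. Capitals mark the 2 units of the repeat.
Sgk1: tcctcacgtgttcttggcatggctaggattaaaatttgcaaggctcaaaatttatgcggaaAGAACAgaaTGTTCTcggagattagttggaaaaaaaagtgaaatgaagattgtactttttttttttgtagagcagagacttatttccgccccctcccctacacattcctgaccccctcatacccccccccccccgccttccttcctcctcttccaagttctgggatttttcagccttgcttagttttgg
Fkbp5: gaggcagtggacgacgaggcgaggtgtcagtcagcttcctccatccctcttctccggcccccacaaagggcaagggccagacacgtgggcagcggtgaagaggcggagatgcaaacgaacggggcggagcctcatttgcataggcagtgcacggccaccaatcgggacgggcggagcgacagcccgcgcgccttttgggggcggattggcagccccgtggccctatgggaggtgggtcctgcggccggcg
A match of letters is a description of these windows only. Either unit occurred in 16.1% of all windows and in 4 of the 24 windows (16.7%) of 19 further glucocorticoid response genes, of which 0 held the full repeat.

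Of the 7 genes, Hsd11b2 showed the widest range of levels. It was at 52.9, 407 and 314 TPM in the tumors of GB344, GB359 and GB370, and at 54.5, 55.6 and 4.08 TPM in the adjacent cerebellum of the same mice. In controls it was barely above 0, at 0.439, 0.132 and 0.204 TPM in Brca2-mut and 0.506, 0.519 and 0.182 TPM in Trp53-mut cerebella. Every tumor and every adjacent sample stood above all 6 controls, whereas tumor and adjacent values overlapped, because the tumor of GB344 was no higher than adjacent tissue. Tumors averaged 258 ± 184 TPM (SD, n = 3). The mean of adjacent tissue was 38.1 ± 29.4 TPM (SD, n = 3) and that of controls 0.330 ± 0.176 TPM (SD, n = 6). On the log2(TPM + 1) scale, which understates changes from such low levels, tumors exceeded controls by 7.17 (standard error 0.52), the 6th largest rise among 16241 genes tested. Hsd11b2 was chosen for this rise, so its rank is a description. All 6 controls were under 1 TPM, so Hsd11b2 entered the genes tested only through the tumors. Between tumor and adjacent tissue the difference was 2.92 with a standard error of 1.13, and 1.77 without the adjacent sample of GB370. Hsd11b2 lies at chr8:105518746-105523988 on the plus strand (GRCm38.p6) and overlaps no other annotated gene. The nearest coding gene, Atp6v0d1, lies 477 bases away and was at 119 to 238 TPM over all 12 samples, lower in the tumors.

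Hsd11b1 ran in the opposite direction. Its level was 6.99, 13.8 and 8.70 TPM in the 3 tumors, 72.8, 75.2 and 88.0 TPM in adjacent cerebellum, 116, 94.9 and 88.8 TPM in Brca2-mut controls, and 86.9, 88.9 and 113 TPM in Trp53-mut controls. The tumors lay below all other samples, and adjacent and control values overlapped. The tumor difference was -3.23 (standard error 0.18) from controls and -2.92 (standard error 0.24) from adjacent tissue on the log2(TPM + 1) scale. Hsd11b1, at chr1:193221640-193264045 on the minus strand, shares its locus with Lamb3 on the opposite strand (0.393 to 5.0 TPM). No source states that counting used strand, so reads of the 2 genes may not be fully apart.

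**Figure D1:**
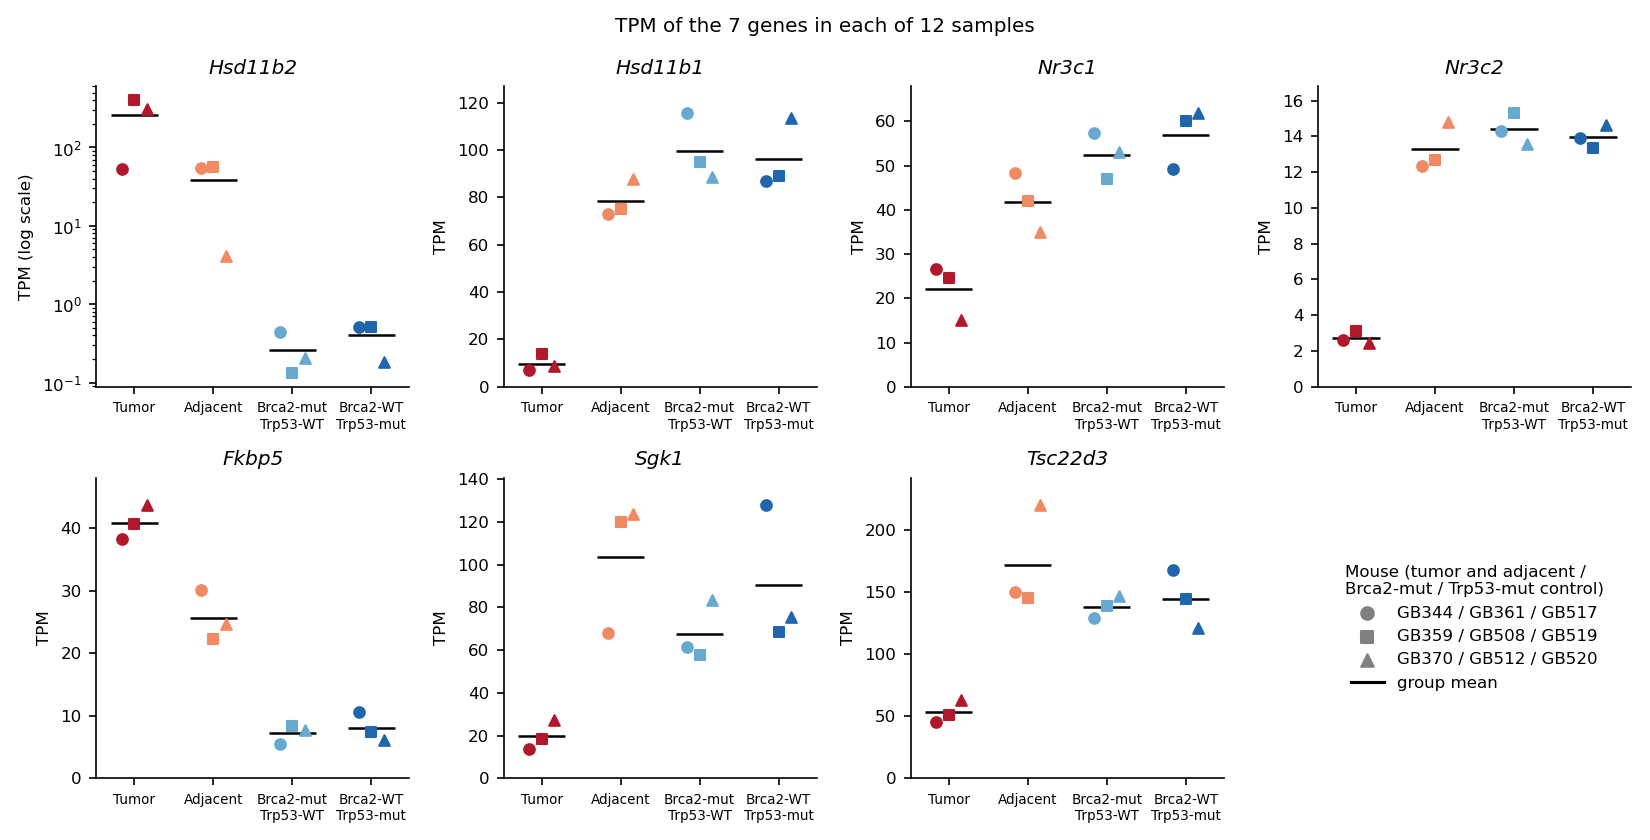
TPM of each of the 7 genes in each of the 12 samples, with 1 point per sample and the group mean as a line. The y axis is logarithmic for Hsd11b2 only and linear from 0 for the rest. Tumors sit above all controls for Hsd11b2 and Fkbp5 and below all controls for the other 5 genes, and adjacent cerebellum sits above all controls for Hsd11b2 and Fkbp5. How common such separation of tumors is among all genes is not given.

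The balance of the enzymes therefore turned over between tissues. The TPM ratio of Hsd11b2 to Hsd11b1 was 7.57, 29.4 and 36.1 in the tumors of GB344, GB359 and GB370, and 0.749, 0.740 and 0.0464 in their adjacent cerebellum. In the 6 controls it was 0.00139 to 0.00584. All tumors thus held more of the inactivating than of the activating transcript, and all other samples held less. A transcript ratio says nothing of enzyme activity or of steroid levels, which were not measured. In adjacent tissue the mean log2 ratio of (TPM + 1) values was -1.66, against -6.22 in controls, a difference of 4.56. With a single control genotype the difference was 4.67 (Brca2-mut) or 4.46 (Trp53-mut). Since the low Hsd11b2 level of controls had a part in its choice, these differences are given with no test.

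**Figure D2:**
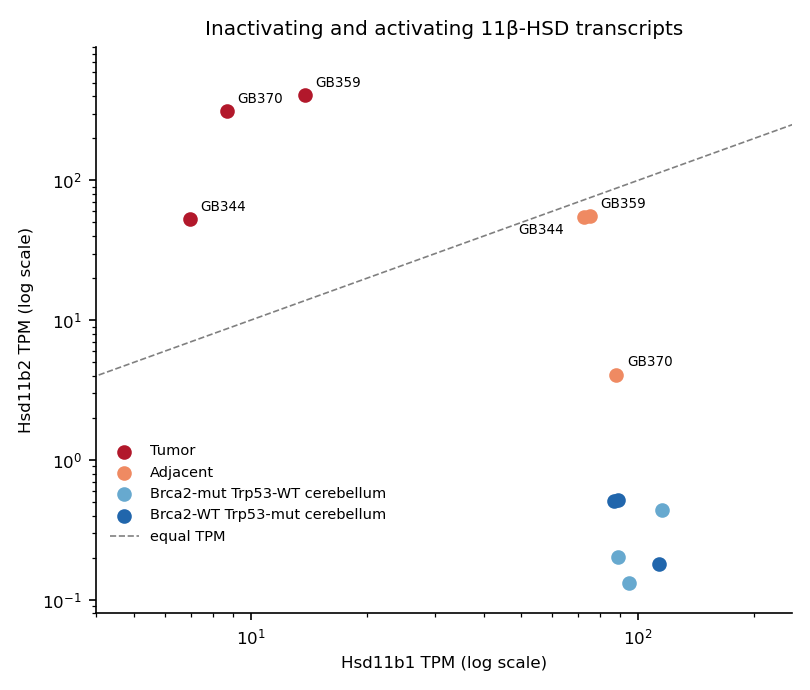
Hsd11b2 TPM (y axis, log scale) against Hsd11b1 TPM (x axis, log scale), 1 point per sample, with the dashed line marking equal TPM. The 3 tumors lie above the line with ratios of 7.57 to 36.1, the 3 adjacent samples lie below it at 0.0464 to 0.749, and the 6 controls lie far below it at 0.00139 to 0.00584.

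Both receptor genes were lower in the tumors. Nr3c1, the glucocorticoid receptor, was at 26.7, 24.5 and 15.2 TPM in tumors, 48.3, 41.9 and 35.0 TPM in adjacent tissue, 57.3, 46.9 and 53.2 TPM in Brca2-mut and 49.1, 60.0 and 61.8 TPM in Trp53-mut controls. Nr3c2, the mineralocorticoid receptor, was at 2.60, 3.11 and 2.47 TPM in tumors, 12.4, 12.7 and 14.8 TPM in adjacent tissue, and 13.4 to 15.3 TPM in the 6 controls. For both genes the tumors lay below every other sample. The differences from controls were -1.30 (standard error 0.17) for Nr3c1 and -2.03 (standard error 0.10) for Nr3c2 on the log2(TPM + 1) scale, and the TPM ratio of Nr3c1 to Nr3c2 was highest in tumors, at 8.10 ± 2.07 (SD, n = 3). It was 3.19 ± 0.775 (SD, n = 3) in adjacent tissue and 3.87 ± 0.508 (SD, n = 6) in controls. In bulk tissue, fewer cells of a type and less RNA per cell cannot be told apart, and the tumors held little of the neuron, astrocyte and oligodendrocyte signal of the other samples.

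The 3 response genes did not move together. Fkbp5, a co-chaperone that the receptor induces and that in turn lowers receptor affinity for hormone, was at 38.3, 40.7 and 43.8 TPM in tumors, 30.1, 22.3 and 24.7 TPM in adjacent tissue, 5.57, 8.30 and 7.75 TPM in Brca2-mut and 10.6, 7.47 and 6.07 TPM in Trp53-mut controls. The 3 levels were separate, with tumors highest and controls lowest, and the tumor difference from controls was 2.31 (standard error 0.17) on the log2(TPM + 1) scale. Unlike Hsd11b2, Fkbp5 varied little among the tumors.

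Sgk1, a kinase that both receptors induce, was lowest in tumors, at 13.6, 18.3 and 27.2 TPM. It was at 67.9, 120 and 124 TPM in adjacent tissue, 61.6, 57.8 and 83.7 TPM in Brca2-mut and 128, 68.3 and 75.8 TPM in Trp53-mut controls. Tsc22d3, which encodes the leucine zipper protein GILZ, was at 45.6, 51.0 and 63.2 TPM in tumors, 150, 145 and 220 TPM in adjacent tissue, 129, 139 and 147 TPM in Brca2-mut and 168, 145 and 121 TPM in Trp53-mut controls. Tumors lay below all other samples for both genes, and their difference from controls was -1.95 (standard error 0.26) for Sgk1 and -1.40 (standard error 0.12) for Tsc22d3 on the log2(TPM + 1) scale. Adjacent and control values overlapped for both.

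The highest to lowest order of group means was tumor, adjacent, Trp53-mut, Brca2-mut for Hsd11b2 and Fkbp5, and adjacent, Trp53-mut, Brca2-mut, tumor for Sgk1 and Tsc22d3. In Hsd11b1, Nr3c1 and Nr3c2 both control groups came first, then adjacent tissue, then tumor. Between neighbours in these orders, the sample ranges of the 2 control groups overlapped for every gene, and those of adjacent tissue and the nearest control group for every gene but Hsd11b2 and Fkbp5. Tumor and control ranges did not overlap for any member, but the share of all genes for which this holds is not given here. In that comparison 73.5% of all tested genes had a limma unadjusted p under 0.05.

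The stated reason for the choice of genes named no level in adjacent cerebellum, although the controls had a part, as the level against which Hsd11b2 was raised in tumors. The genes were also chosen with earlier results of these data known, so the p-values below do not come from a blind choice. A gene was called where its limma adjusted p was under 0.01 and its log2 difference at least 1 in size. Fkbp5 was called higher in adjacent tissue, at 25.7 ± 4.01 TPM (SD, n = 3) against 7.62 ± 1.77 TPM (SD, n = 6), a log2 difference of 1.64 (standard error 0.18, limma adjusted p = 0.00678), in a comparison where 0.236% of 16091 tested genes were called and 0.224% were called higher. The direction held in every alternative tried, but the call did not: the log2 difference was 1.53 and the limma adjusted p 0.0356 without the adjacent sample of GB344. It was also lost on leaving out any of 5 controls (GB361, GB508, GB512, GB519 or GB520), with limma adjusted p from 0.0117 to 0.0201.

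Hsd11b2 differed by 4.25 (standard error 0.65), and by 5.41 without the adjacent sample of GB370, which held 4.08 TPM. All 6 controls were under 1 TPM, so that it passed the filter on low values only through the adjacent samples, and no p-value is given for it. For Fkbp5 all 3 adjacent samples lay above all 6 controls, as for 11.7% of tested genes. The other 5 genes were not called. Nr3c1 differed by -0.39 (limma adjusted p = 0.0505), Hsd11b1 by -0.31 (limma adjusted p = 0.0831), Nr3c2 by -0.09 (limma adjusted p = 0.506), Sgk1 by 0.39 (limma adjusted p = 0.311) and Tsc22d3 by 0.26 (limma adjusted p = 0.215).

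Between the 2 control genotypes, Brca2-mut and Trp53-mut, 0 of the 6 genes that passed the filter were called by limma and 0 had an unadjusted p under 0.05, where 0.0578% and 20.1% of 15575 tested genes did so. The log2 differences, Brca2-mut minus Trp53-mut, ran from -0.38 for Sgk1 to 0.05 for Hsd11b1. Hsd11b2 stayed below 1 TPM in all 6 controls and was not tested.

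**Figure D3:**
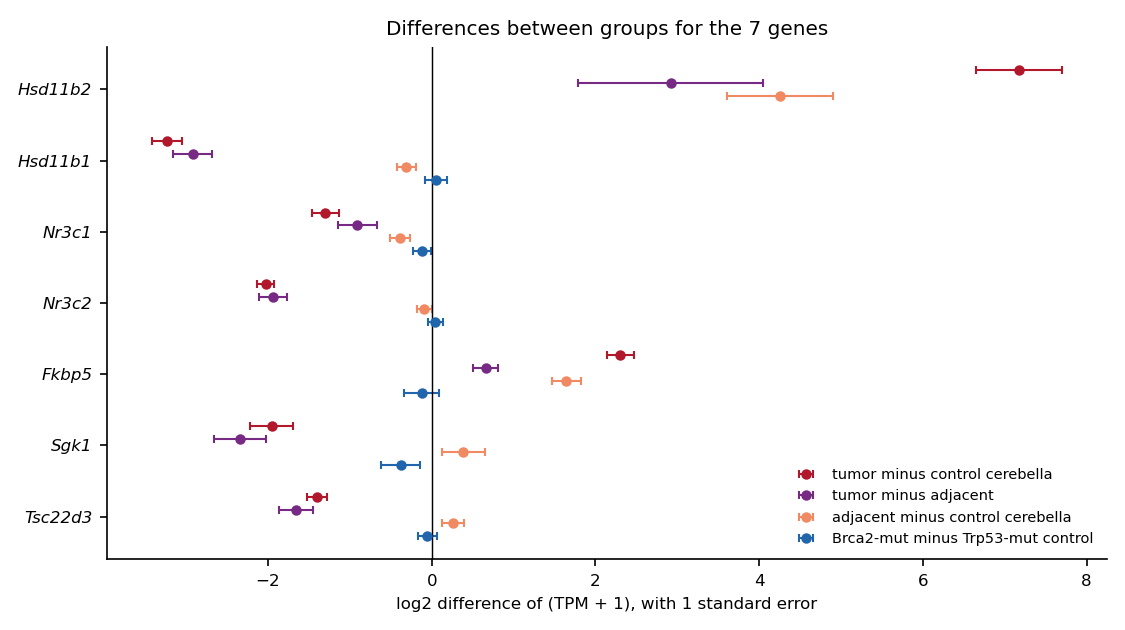
Log2 difference of (TPM + 1) for each gene in the 4 comparisons, as points with 1 standard error. Hsd11b2 and Fkbp5 lie to the right of 0 in the tumor and adjacent comparisons, the other 5 genes lie to the left of 0 in both tumor comparisons, and the genotype differences lie between -0.38 and 0.05. Hsd11b2 has no point for the genotypes, since it was not tested there.

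The adjacent tissue also carried progenitor transcripts, and like Hsd11b2 these were lowest in GB370. In GB344, GB359 and GB370, adjacent Hsd11b2 was 103%, 13.7% and 1.30% of the level in the tumor of the same mouse. Atoh1 was at 50.0%, 20.7% and 1.57%, the proliferation gene Mki67 at 49.2%, 23.7% and 3.42%, and the cyclin gene Ccnd2 at 87.9%, 19.5% and 3.4%. The granule lineage gene Barhl1 was at 59.2%, 31.0% and 9.43%, and Mfap4 at 38.7%, 44.0% and 9.69%. All 6 genes were thus lowest in GB370, and all but Mfap4 were highest in GB344. In TPM, adjacent Hsd11b2 was alike in GB344 and GB359 (54.5 and 55.6), while Atoh1 was at 59.4, 50.5 and 5.0 TPM.
The summed level of 5 granule progenitor markers was 529, 378 and 61.9 TPM in the adjacent samples, against 15.8 to 34.3 TPM in controls and 901 to 1612 TPM in tumors. Fkbp5 did not share that order, at 78.6%, 54.7% and 56.3% of the tumor level. In the adjacent tissue of GB370, where progenitor markers were lowest, Fkbp5 was at 24.7 TPM, and the highest control was at 10.6 TPM. With GB370 as the lone adjacent sample the Fkbp5 log2 difference from controls was 1.60. This comparison was chosen after the data were seen and rests on a single adjacent sample, so no p-value is given. The part of tumor cells in the adjacent values was not tested.

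**Figure D4:**
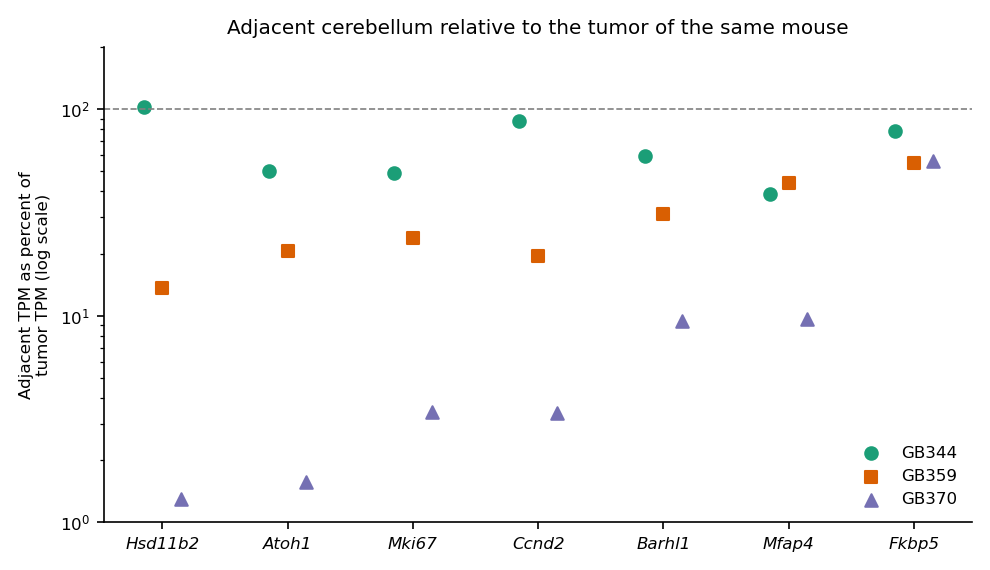
TPM in adjacent cerebellum as a percent of the tumor TPM of the same mouse (y axis, log scale) for Hsd11b2, 5 granule progenitor or proliferation genes and Fkbp5, with 1 symbol per mouse and a dashed line at 100%. Hsd11b2 falls from 103% in GB344 to 1.30% in GB370, as Atoh1 does from 50.0% to 1.57%, while Fkbp5 stays between 54.7% and 78.6%.

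The genes whose pattern over the 12 samples lay nearest to each of 3 members were ranked by the root mean square difference of centred log2(TPM + 1) values among 16497 genes. Nearest to Hsd11b2 was Atoh1 (0.46), followed by Sfrp1 (0.63), Igfbpl1 (0.63), Nhlh1 (0.64) and Tecta (0.65), against a spread of Hsd11b2 itself of 3.36 (SD). Nearest to Fkbp5 were Txnip (0.30), Gm5087 (0.32), Flna (0.32), Tfap4 (0.34) and Tlx3 (0.35), against a spread of 1.08. Nearest to Sgk1 were Tmem8 (0.25), Ifitm10 (0.25), Pnck (0.26), Nrip2 (0.27) and Eva1a (0.27), against a spread of 1.04. The 12 samples share 4 groups and the paired mice, so the ranking mostly follows group means.

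In a wider list of 23 further glucocorticoid response genes, lower levels prevailed in the tumors. Against controls 14 of 23 fell and 2 rose, where 35.9% of all tested genes were called, 21.5% lower and 14.4% higher. The median log2 difference was -1.57, against -0.11 over all tested genes. Of the 16 called, Pdk4, Hif3a, Plin4 and Lcn2 passed the filter on low values only through the group where they were higher. The 3 largest changes were falls. Fam107a, an actin-associated stress gene, fell by 4.79 (standard error 0.53, limma adjusted p = 1.49e-05), Bcl6, a transcriptional repressor, fell by 3.30 (standard error 0.15, limma adjusted p = 3.96e-08), and the metallothionein Mt2 fell by 3.26 (standard error 0.32, limma adjusted p = 5.61e-06). Fam107a was at 4.08, 13.5 and 40.7 TPM in tumors and at 259 to 547 TPM in controls. Of the higher genes, Lcn2, which encodes lipocalin 2, was at 3.56 to 5.78 TPM in tumors and 0.607 to 1.63 TPM in controls. Ddit4, an inhibitor of mTOR signaling, rose by 1.22 (standard error 0.22, limma adjusted p = 0.000503), a call that was lost against the Trp53-mut controls alone (limma adjusted p = 0.0106). Angptl4 and Cebpd, named after their values were seen, were not called. Angptl4 was at 4.33 to 6.45 TPM in tumors and 1.80 to 3.32 TPM in controls. Cebpd was at 7.05 to 8.48 TPM in tumors and 2.36 to 6.48 TPM in controls. With a pseudocount of 0.1 or 0.01 or with quantile normalization, Angptl4 was called higher.

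Several of these genes are high in glia or in mature neurons, and markers of astrocytes and granule neurons were also lower in tumors than in controls. The summed level of 5 astrocyte and Bergmann glia markers was 275 to 511 TPM in tumors and 1316 to 1649 TPM in controls, 4 of the 5 being lower in every tumor than in any control. The immediate early genes, which neuronal activity and handling induce, summed to 56.9 to 66.3 TPM in tumors and 157 to 316 TPM in controls. In adjacent tissue the astrocyte and Bergmann glia sum was 1261 to 1344 TPM and the immediate early sum was 109 to 188 TPM. The part of cell types, activity or handling in the response gene levels was not tested.

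Against adjacent tissue 14 of the 23 genes fell in tumors and 0 rose, where 22.8% of all tested genes were called, 18% lower and 4.76% higher, and the median difference was -1.65 against -0.14 over all genes. Of these 14, Pdk4, Hif3a and Plin4 passed the filter on low values only through adjacent tissue, where they were higher. Fam107a fell by 5.32 (standard error 0.69, limma adjusted p = 0.00118), Mt2 fell by 4.13 (standard error 0.43, limma adjusted p = 0.000495) and the other metallothionein gene, Mt1, fell by 4.07 (standard error 0.37, limma adjusted p = 0.000337).

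In adjacent cerebellum against controls, limma called 0 of the 23 response genes. This list, too, was chosen with earlier results of these data known. Of the 23, 15 had an unadjusted p under 0.05, all higher in adjacent tissue, where 34.5% of all tested genes had such a p in either direction. The log2 difference was above 0 for 21 of 23 genes, with a median of 0.61 against 0.07 over all genes, and for 8 genes all 3 adjacent samples lay above all 6 controls, as for 11.7% of all tested genes. Named after their values were seen, Zbtb16, a zinc finger regulator, was at 25.5, 17.0 and 36.9 TPM in adjacent tissue and 4.80 to 11.7 TPM in controls (limma adjusted p = 0.0152), and Mt1 was at 1731, 2094 and 1937 TPM against 892 to 1152 TPM (log2 difference 0.89, limma adjusted p = 0.00706, short of the fold minimum).
Of the 3 adjacent samples, that of GB370, with the lowest progenitor markers, had the most response genes above every control, 21 of 23, against 27.8% of all tested genes in that sample. The counts were 10 of 23 in GB344 and 16 of 23 in GB359, against 37.4% and 33% of all tested genes. Sgk1 lay within the control range in all 3 adjacent samples, and Tsc22d3 did so in GB344 and GB359.

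Among the controls, GB517 (Trp53-mut) stood at the top. It was the highest of the 6 controls for 14 of the 23 response genes, against 20.6% of all tested genes, and for Fkbp5, Sgk1 and Tsc22d3. Per1, a clock gene that the receptor induces, was at 99.8 TPM in GB517 and at 47.1 to 79.4 TPM in the other 5 controls, a comparison chosen after its values were seen. The labels give no time of day or handling before death, and their part was not tested. Without GB517 the Fkbp5 and Hsd11b2 differences between adjacent tissue and controls were 1.73 and 4.29 on the log2 scale.

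**Figure D5:**
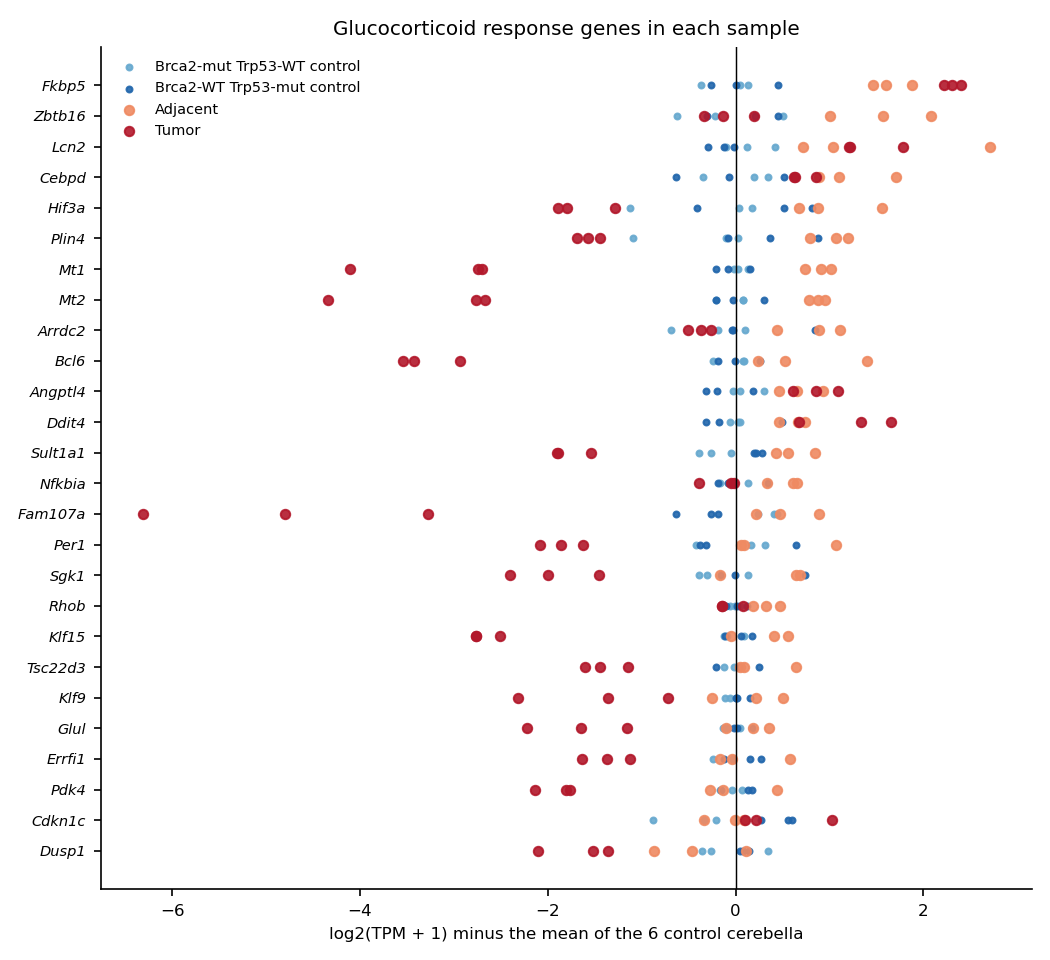
Log2(TPM + 1) of 26 glucocorticoid response genes (the list of 23 with Fkbp5, Sgk1 and Tsc22d3) in each sample, minus the mean of the 6 controls (x axis), with genes ordered by their mean in adjacent tissue and 1 point per sample. Tumor points lie left of 0 for most genes, by up to several log2 units for Fam107a, Mt1, Mt2 and Bcl6. They lie right of 0 for Fkbp5, Lcn2, Ddit4, Angptl4, Cebpd and Cdkn1c. Adjacent points lie mostly right of 0.

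Of 12 genes for chaperones that hold the receptors, limma called 0 in any comparison. In tumors against controls their log2 differences ran from -0.46 to 0.99, with 6 of 12 at an unadjusted p under 0.05, as were 73.5% of all genes. Named after their values were seen, the genes nearest the fold minimum in tumors against controls were Hsp90ab1, which encodes an HSP90 (0.99), and Ptges3, which encodes the co-chaperone p23 (0.93). With median-of-ratios scaling both passed it, at 1.1 and 1.05, and with quantile normalization 2 of 12 were called higher as well. Against adjacent tissue, median-of-ratios scaling gave 4 of 12 called higher, Fkbp4, Hsp90ab1, Ppid and Ptges3, and quantile normalization gave 1. Among 10 coregulator genes, Nrip1, a corepressor of nuclear receptors, fell by 1.2 (standard error 0.11, limma adjusted p = 4.74e-06) against controls and fell by 1.33 (limma adjusted p = 0.00172) against adjacent tissue.

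For the supply of corticosteroids, 7 of 12 genes passed the filter on low values. Cyp11a1, the side-chain cleavage enzyme that begins steroid synthesis, was at 19.1, 35.1 and 72.3 TPM in tumors, 4.22 to 6.79 TPM in adjacent tissue and 2.16 to 3.45 TPM in controls. It rose in tumors by 3.26 (standard error 0.32, limma adjusted p = 6.14e-06) against controls and by 2.52 (standard error 0.45, limma adjusted p = 0.00430) against adjacent tissue. With the mouse as a block the latter limma adjusted p was 0.0107, and the call was also lost without the tumor of GB359 or any 1 adjacent sample (limma adjusted p from 0.0110 to 0.0159). The genes for the last adrenal steps, Cyp11b1, Cyp11b2 and Cyp21a1, and Hsd3b1 stayed below 1 TPM in all 12 samples. The P-glycoprotein genes, whose product exports corticosteroids, parted: Abcb1a fell by 1.97 (standard error 0.22, limma adjusted p = 1.60e-05) and Abcb1b rose by 1.40 (standard error 0.21, limma adjusted p = 0.000128) against controls. Abcb1a is typical of brain endothelium, and of 5 endothelial markers 3 were lower and 1 was higher in every tumor than in any control. Abcb1a and Abcb1b are close paralogs, so reads could be split between them with some error.

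Among 8 effectors of mineralocorticoid action, the sodium pump subunit gene Atp1b1 fell by 4.65 in tumors against controls (standard error 0.24, limma adjusted p = 6.26e-08). The epithelial sodium channel genes were low everywhere. Scnn1a averaged 4.78 ± 1.06 TPM in the 3 tumors, against 0.635 ± 0.124 TPM in the 6 controls (± SD). Scnn1g averaged 0.117 ± 0.0863 TPM in the 3 tumors, against 2.02 ± 0.814 TPM in the 6 controls (± SD). Each passed the filter on low values only through the group where it was higher, so no p-value is given. Over the 5 lists together, 25 of 59 tested genes were called in tumors against controls, 6 higher and 19 lower, or 10 higher and 19 lower after quantile normalization, where 35.9% of all tested genes were called. Of the 25, 6 passed the filter only through the group where they were higher. Against adjacent tissue 20 of 58 were called, 2 higher and 18 lower, or 6 higher and 17 lower with median-of-ratios scaling, where 22.8% of all tested genes were called. Of these 20, 4 passed the filter only through the group where they were higher. Limma called 0 of 58 in adjacent tissue against controls, with 25 at an unadjusted p under 0.05 (34.5% of all tested genes), and 0 of 57 between the control genotypes, with 9 at an unadjusted p under 0.05 (20.1% of all tested genes).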

How the data were processed

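RNA from tumors and cerebella was extracted with a Zymo kit, and libraries were made with the NEB Ultra II kit. The authors quantified reads with Salmon 0.8.1 against mouse transcripts (mm10), per the labels and methods, and deposited TPM values per gene for the 12 samples, which were analysed here as deposited. No counts were used, so sequencing depth is unknown, and counting error cannot be given. Whether strand was used is not given in the sources used here.

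Values were tested as log2(TPM + 1) with limma 3.58.1 (R 4.3.3, moderated with a mean trend) over all genes at 1 TPM or more in at least 3 samples of a comparison, with Benjamini-Hochberg adjustment over all genes tested. Genes were called at an adjusted p under 0.01 and a log2 difference of at least 1. The main fit of tumors against adjacent tissue did not use the pairing by mouse, which entered as a replicate block among the alternatives. The exact permutation test planned for the enzyme ratio is not reported, because the Hsd11b2 level of controls had a part in the choice of genes. Tumor and adjacent samples of a number come from the same mouse: over 15845 genes their deviations from the group means correlated at 0.249, 0.176 and 0.152. The other groups share only a number. Samples of a group are separate mice. The limma step was tested on simulated data at a log2 change of 2.5 and recovered 192 of 200 changed genes for 3 against 3 samples (15575 genes) and 191 of 200 for 3 against 6 (16241 genes). The errors were normal and the changed genes were drawn from those at higher levels. Recovery of smaller changes or of low genes was therefore not tested.

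The members and lists were chosen with earlier results of these data known. Named were the 7 members, at most 3 called genes of each list with the largest change per direction and comparison, the 5 genes most like Hsd11b2, Fkbp5 and Sgk1, the first gene of a marker list, and neighbouring or overlapping genes. Further genes are marked as named after their values were seen, and undetected supply genes are named by list. Results for some listed genes are not reported here. Coordinates come from the GENCODE annotation of GRCm38.p6. Alternatives were another pseudocount, another filter or none, other scalings, no mean trend, all 4 groups in the fit, a single control genotype, another threshold, a replicate block and leaving out each sample.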

Additional observations from a re-analysis of the deposited data

Results flagged for a closer look

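Sgk1 in the Trp53-mut control GB517, at 128 TPM, stood apart from the other 5 control cerebella. Its gap to the next sample was 0.632 of the range of the 6 controls, above Dixon's 95% critical value for a group of that size. Chance flags about 1 in 20 groups, and 7 genes were checked. GB517 was also the control with the highest Fkbp5 and Tsc22d3.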

How the results depend on the processing

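The Hsd11b2 difference between tumors and controls, a description, ran from 6.63 to 8.09 on leaving out each sample in turn. The count of members called in adjacent tissue against controls, 1 as reported, was 2 with a pseudocount of 0.1 or 0.01, with median-of-ratios scaling, with quantile normalization, without the most abundant gene and at an adjusted p under 0.05, and 0 with no filter, with either control genotype alone and with GB370 as the lone adjacent sample. It ran from 0 to 2 on leaving out each sample in turn. Wherever it was 2, the second gene was Hsd11b2, which entered only through the adjacent samples, so those counts add no support. The Hsd11b2 difference there, a description, was 4.25 as reported. It was 5.87 or 6.27 with a pseudocount of 0.1 or 0.01, 4.15 with median-of-ratios scaling, 4.14 with quantile normalization and 4.31 without the most abundant gene. On leaving out each sample in turn it ran from 3.67 to 5.41. The Fkbp5 difference there ran from 1.53 to 1.74, and the call was also lost with no filter (limma adjusted p = 0.0126) and with only the Brca2-mut (0.0375) or Trp53-mut controls (0.0270). The log2 ratio of Hsd11b2 to Hsd11b1 ran from 3.94 to 5.80 and was 4.67 and 4.46 with a single control genotype. Over the 5 lists, an adjusted p under 0.05 with no fold minimum gave 41 genes in tumors against controls, 38 against adjacent tissue and 16 in adjacent tissue against controls. Of all genes, that threshold gave 11573, 7980 and 2524 in these comparisons, against 5830, 3607 and 38 as reported. The 38 became 586 without the adjacent sample of GB370, 63 with median-of-ratios scaling, 60 with quantile normalization and 4 with no filter.

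Between control genotypes the Hsd11b2 difference, untested, was -0.15, and -0.49 and -0.65 with a pseudocount of 0.1 and 0.01. Small differences there changed sign, and none was called. On leaving out each sample in turn, Hsd11b1 ran from -0.0594 to 0.172, Nr3c2 from -0.000676 to 0.0790, Fkbp5 from -0.285 to 0.0693 and Tsc22d3 from -0.172 to 0.0593, and Tsc22d3 was at 0.0614 with median-of-ratios scaling. In adjacent tissue against controls, Nr3c2 was at 0.0594 with GB370 alone. The cause of these changes was not tested.

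The pairing of tumor and adjacent tissue by mouse, as a replicate block, left 20 listed genes called (1 higher, 19 lower). The block gave 3542 called genes over all, against 3607. Besides Cyp11a1, Zbtb16 lost its call (limma adjusted p = 0.0106), while Dusp1 and Klf9 gained one. The Hsd11b2 difference was 2.92 in both fits. No other paired analysis was possible because the other groups come from different mice.

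Median-of-ratios scaling and quantile normalization moved the median log2 difference of all genes from -0.11 to -0.01 and 0.04 in tumors against controls, and from -0.14 to 0.05 and 0.13 against adjacent tissue. The members kept their directions in these 2 comparisons. With 3 mice per group and no read counts, small differences in low genes could not be resolved.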
